A study of Mus musculus with 12 samples.

Results

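The Hox genes of the 4 mouse clusters, Hoxa to Hoxd, were followed through RNA-seq of sorted embryonic spinal cells. Members were the genes named Hox, a cluster letter and a paralogue number. Of 38 listed genes, 37 had a row among the 30740 gene symbols of the tables and the other, Hoxd4, was not analysed here. Cluster A gave 10 members, cluster B 10, cluster C 9 and cluster D 8, over 13 paralogue groups.

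Cells came from the ventral spinal cord of CB6F1/J mouse embryos at E12.5, in embryonic days. All embryos carried Hb9:GFP, a reporter in which the promoter of the motor neuron gene Hb9 (Mnx1) drives green fluorescent protein. Arhgap35 encodes p190, a GTPase-activating protein. The series compares Arhgap35 knockout embryos with littermate controls in 5 GFP-positive libraries each, with 1 GFP-negative library of each genotype beside them. Control samples are labelled wild type, but the protocol allows wild-type or p190+/- littermates among them. The protocol says that dissected regions were pulled before dissociation, read here as pooled, and nothing states that the numbered replicates were separate litters, so p-values here measure the spread between these libraries. The labels call every sample a motor neuron sample, GFP-negative ones included.

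Hox genes encode homeodomain transcription factors, and their order along each cluster matches their order of expression from head to tail. Low-numbered paralogue groups act from the hindbrain backwards, middle groups mark cervical, brachial and thoracic cord, and high groups mark lumbar and sacral cord. In spinal motor neurons a combination of Hox proteins, with Pbx and Meis cofactors, sets the motor column and the muscle-specific pool that a neuron joins. Genes of the same paralogue group in different clusters descend from a common ancestor and have similar homeodomains.

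Paralogue group 9, whose members mark thoracic and lumbar cord, is shown by the sequences of Hoxb9 and Hoxc9, because these paralogues fell by very different amounts in GFP-positive relative to GFP-negative cells. The homeobox, the 180 bases that code for the homeodomain, is given 5′ to 3′ on the coding strand from GENCODE M21 transcripts on GRCm38, and capitals mark bases that differ from Hoxc9. Each lies within a coding exon of its gene.
Hoxb9 (chr11:96274659-96274838, plus strand): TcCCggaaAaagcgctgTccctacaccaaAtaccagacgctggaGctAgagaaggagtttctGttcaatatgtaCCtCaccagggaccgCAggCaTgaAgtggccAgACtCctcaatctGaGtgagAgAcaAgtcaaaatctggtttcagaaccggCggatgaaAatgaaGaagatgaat
Hoxc9 (chr15:102983930-102984109, plus strand): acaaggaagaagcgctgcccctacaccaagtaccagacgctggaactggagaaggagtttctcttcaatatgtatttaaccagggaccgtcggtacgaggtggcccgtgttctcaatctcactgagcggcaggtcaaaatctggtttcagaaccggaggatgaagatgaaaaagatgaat
Hoxb9 shared 83.9% of bases with Hoxc9. Over the 37 pairs of members within a paralogue group, homeobox identity had a median of 80.6%, against 61.7% over the 154 pairs of different groups within a cluster. kallisto by default assigns reads by shared 31-base words, and few of these were common to group 9 and another gene. At most 0.988% of the words of Hoxa9, Hoxb9, Hoxc9 or Hoxd9 were shared with any other single gene.

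The 250 bases before the RefSeq start of Hoxb8 and Hoxd10 are shown as well, because these genes moved in opposite directions between the sorted fractions. Capitals mark matches on either strand to TATAAA (the TATA box), TTTATNG (a word of Cdx factors, caudal activators of Hox genes), TGATNNAT (a Pbx-Hox word) and CCAAT, in RefSeq sequence on GRCm38.p6.
Hoxb8 (chr11:96281655-96281904, plus strand): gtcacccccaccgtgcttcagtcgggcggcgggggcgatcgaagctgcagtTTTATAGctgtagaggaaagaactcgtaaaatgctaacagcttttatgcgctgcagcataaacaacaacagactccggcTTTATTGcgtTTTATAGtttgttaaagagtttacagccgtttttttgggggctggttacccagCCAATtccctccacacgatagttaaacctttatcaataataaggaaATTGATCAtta
Hoxd10 (chr2:74691641-74691890, plus strand): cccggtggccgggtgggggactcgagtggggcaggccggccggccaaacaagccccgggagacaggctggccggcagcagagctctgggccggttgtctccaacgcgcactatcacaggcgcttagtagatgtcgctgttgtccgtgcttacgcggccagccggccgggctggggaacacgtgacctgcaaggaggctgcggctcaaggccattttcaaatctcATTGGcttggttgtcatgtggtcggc
Hoxb8 held 3 matches to the Cdx word, 2 to TATAAA, which overlap Cdx matches on the opposite strand, 1 to the Pbx-Hox word and 1 to CCAAT. Hoxd10 held 1 match to CCAAT and none to the other 3 words. These words were not set against the direction of change over the members. Hoxb1, Hoxa2, Hoxb4, Hoxa5 and Hoxa9, which also fell, held 0 matches to the Cdx word and to TATAAA. The Pbx-Hox word occurred before Hoxb1 and Hoxa2, which fell, and before 1 start of Hoxd11, which rose. Among 32851 mouse RefSeq promoters of this length, 9.81% held the Cdx word, 12.4% TATAAA, 7.68% the Pbx-Hox word and 33.8% CCAAT. A search for AGGTCA (a retinoid receptor word) and GGGCGG (the GC box), not capitalised here, found 1 match to the first in Hoxd10 and 1 to the second in Hoxb8, and 14% and 32.7% of promoters held them. These are matches of letters only, and no binding was measured.

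The labels and the sort were checked first. Arhgap35 stood at 161, 202, 178, 187 and 135 CPM (counts scaled to the depth of each library, with TMM factors) in control replicates 1 to 5 of GFP-positive cells, and at 98.6, 88.2, 102.6, 105.6 and 89.2 CPM in the knockout replicates. The groups did not overlap, and the log2 fold change was -0.83 (edgeR quasi-likelihood adjusted p = 0.024). Mnx1 lay between 229.5 and 315 CPM in GFP-positive libraries and at 0.508 CPM (control) and 0.438 CPM (knockout) in GFP-negative ones, and all 9 motor neuron markers listed were higher in GFP-positive cells. The GFP-negative libraries thus held next to no Mnx1, whose promoter drives the reporter used for the sort. Isl2 was at 0.169 and 0.183 CPM and Chat at 0.881 and 1.31 CPM there. Isl1 was at 26.5 and 25.9 CPM and Lhx3 at 12.7 and 11.1 CPM, against at least 253 and 72.6 CPM in GFP-positive libraries. Libraries held 23.7 M to 33.8 M estimated counts, of which 28166 to 148297 belonged to Hox genes, and 3 counts correspond to 0.0890 to 0.127 CPM.

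GFP-positive motor neurons held transcripts of all 13 paralogue groups, with the largest summed levels in groups 8 to 10. On the TPM scale, which allows genes to be compared, Hoxc8, a gene of brachial motor pools, was highest at 190.2 ± 18.3 TPM (mean ± SD over 10 libraries). Hoxc10, a lumbar gene, followed at 128 ± 11.7 TPM, and its highest library, at 158.6 TPM, just reached the lowest of Hoxc8 at 156.2 TPM. Hoxd3, Hoxa5, Hoxa9 and Hoxc6 came next at 84.3 ± 14.5, 80.97 ± 10.5, 73.5 ± 9.85 and 72.2 ± 13.7 TPM, and their ranges overlapped. Of the 31-base words of Hoxd3, 52.6% also occur in the overlapping gene Gm28230, so its rank depends on how shared reads were assigned.

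The most abundant member differed from group to group. It was Hoxd1 in group 1 (0.686 ± 0.125 TPM), Hoxb2 in group 2 (15.3 ± 7.59 TPM), Hoxd3 in group 3, and Hoxc4 in group 4 (55.9 ± 5.92 TPM). Hoxa5 led group 5, Hoxc6 group 6, Hoxa7 group 7 (64.2 ± 6.01 TPM), Hoxc8 group 8 and Hoxa9 group 9. At the caudal end Hoxc10 led group 10, Hoxd11 group 11 (37.9 ± 12.46 TPM), Hoxc12 group 12 (38.1 ± 19.5 TPM) and Hoxc13 group 13 (9.75 ± 9.67 TPM). In groups 1, 2, 6, 9, 11 and 13 the leader and the next gene differed by less than the larger of their SDs, for instance Hoxa6 at 68.4 ± 8.7 TPM beside Hoxc6, or Hoxb9 at 65.8 ± 40.95 TPM beside Hoxa9. Cluster C supplied the leading gene in 6 of the 13 groups, though in groups 6 and 13 the lead was within that SD. That SD is between libraries, and the genes share libraries. Within each GFP-positive library Hoxb2 was above Hoxa2 (Hoxa2 to Hoxb2 ratio at most 0.88). Hoxd11 was likewise above Hoxa11 and Hoxc11 (ratios to it at most 0.69 and 0.85), and Hoxc13 above the other group 13 members. In groups 1, 6 and 9 the order changed between libraries. Ranks cover the 37 members only, so group 4 was ranked without Hoxd4 and a further row matching the name pattern was not ranked.

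**Figure D1:**
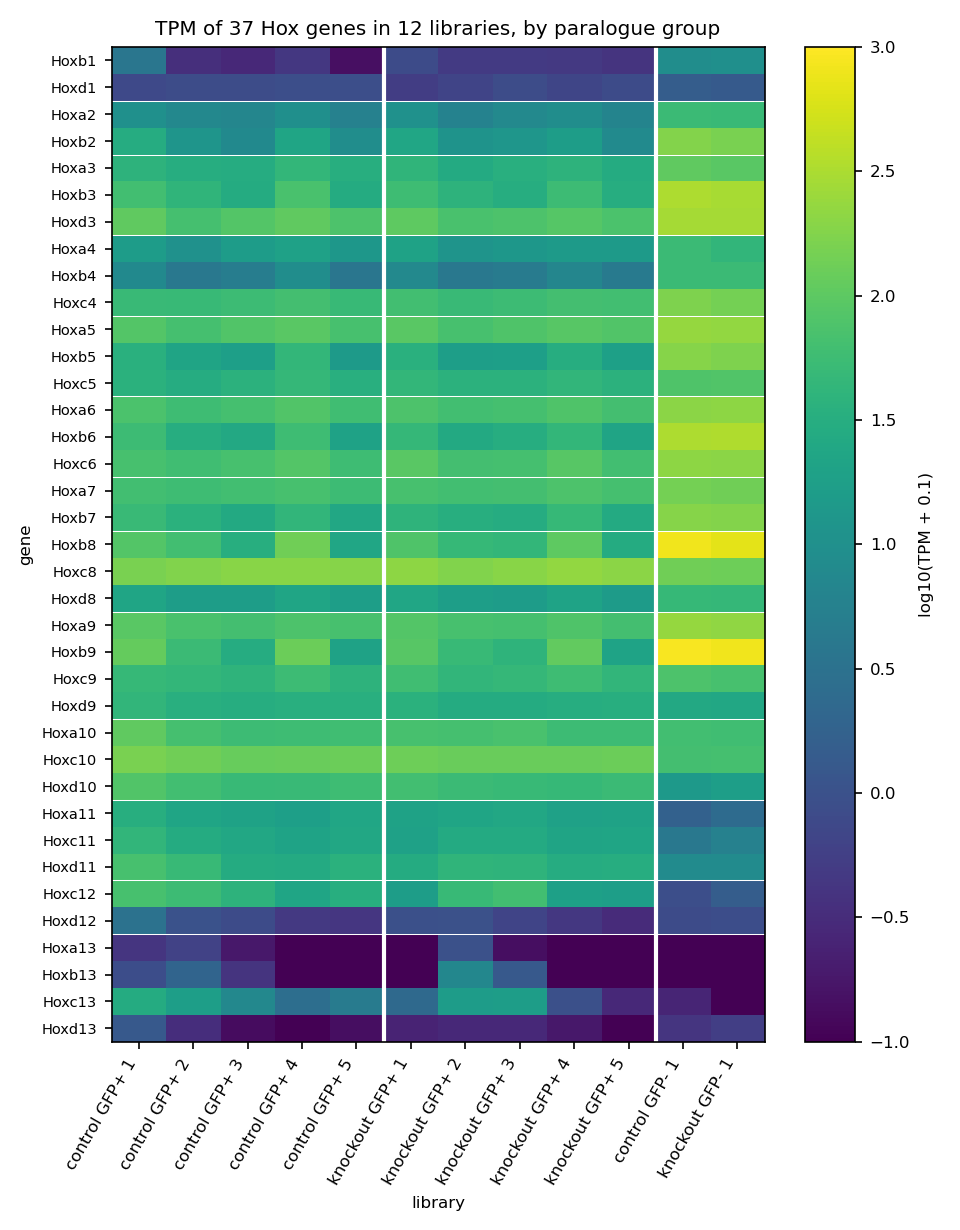
TPM of the 37 Hox genes (rows, by paralogue group from 1 at the top to 13) in the 12 libraries (columns), coloured by log10(TPM + 0.1), with white lines between GFP-positive control, GFP-positive knockout and GFP-negative libraries. Most rows of groups 10 to 13 are darker in the GFP-negative columns, where these groups hold 2.97% (control) and 3.36% (knockout) of summed Hox TPM, and the rows Hoxb1 to Hoxb9 are brighter there.

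Summed over members, Hox TPM was 1303 to 1945 in GFP-positive libraries and 5215 (control) and 4844 (knockout) in GFP-negative ones. Groups 1 to 8 held 60.1% ± 4.91 of that sum in GFP-positive control libraries and 62.3% ± 3.33 in the knockout ones (SD over 5 libraries), and 73.0% and 73.1% in GFP-negative cells. Caudal groups 10 to 13 held 30.5, 29.8, 24.9, 17.6 and 27.7% in control replicates 1 to 5, and 19.9, 28.6, 28.3, 18.3 and 24.4% in knockout replicates 1 to 5. In GFP-negative cells that share was 2.97% in control and 3.36% in knockout, below every GFP-positive library. The share of cluster B moved the other way, from 11.1 to 28.0% in GFP-positive libraries to 57.4% and 56.1% in GFP-negative ones.

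Between GFP-positive and GFP-negative cells nearly all Hox genes differed, and the direction split by paralogue group. Of 37 members tested, 32 passed (86.5%), 23 lower and 9 higher in GFP-positive cells, where 61.9% of all 19763 genes tested passed, 31.8% lower and 30.1% higher. In groups 1 to 8, 20 of 21 members were lower, and in groups 10 to 13, 7 of 12 were higher and none lower. Members had a median log2 fold change of -1.33, and all genes 0.02. For the same 23 and 9 members the 10 GFP-positive libraries lay entirely below or above both GFP-negative libraries, as did 31.7% and 29.1% of all genes. The GFP-negative side is 1 library of each genotype, taken to vary like the GFP-positive ones. In bulk samples fewer cells of a type and less RNA per cell cannot be told apart.

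The 6 largest falls were all in cluster B. Hoxb9, a gene of thoracic and lumbar cord, stood at 119.6, 56.1, 32.8, 137 and 21.5 CPM in control replicates 1 to 5 and 96.3, 54.1, 42.96, 117 and 22.7 CPM in knockout replicates 1 to 5, against 997 and 913 CPM in control and knockout GFP-negative cells. All 10 GFP-positive libraries were below both GFP-negative ones, and the log2 fold change was -3.77 (SE 0.58, adjusted p = 0.000276). Its neighbour Hoxb8, whose upstream sequence is shown above, stood at 84.4, 58.96, 32.2, 122 and 23.5 CPM in control, 80.7, 49.2, 44.1, 101 and 29.4 CPM in knockout, and 801 and 729 CPM in GFP-negative cells. The fall was -3.61 on the log2 scale (SE 0.48, adjusted p = 9.3e-05), with no overlap.

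Hoxb1, which specifies a segment of the hindbrain, was scarce in GFP-positive cells at 2.38, 0.212, 0.168, 0.293 and 0.0423 CPM in control and 0.591, 0.247, 0.245, 0.326 and 0.274 CPM in knockout, against 7.73 and 7.93 CPM in GFP-negative cells. Control replicate 1 stood well above the other 9 libraries but still below the GFP-negative pair (log2 fold change -4.06, SE 0.71, adjusted p = 0.000416). Within control libraries alone this call was lost (-3.54, adjusted p = 0.0912), and the DESeq2 test gave the gene no adjusted p. 

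Hoxb2, a hindbrain gene of the next group, stood at 22.8, 9.3, 6.13, 17.6 and 6.77 CPM in control, 17.3, 8.66, 9.55, 12.97 and 6.02 CPM in knockout and 138 and 122 CPM in GFP-negative cells (-3.46, SE 0.40, adjusted p = 2.64e-05), though 26.5% of its 31-base words are shared with the antisense transcript Hoxb3os. Hoxb4, a gene of the hindbrain boundary and neck, stood at 14.04, 7.09, 8.98, 16.1 and 6.48 CPM in control, 13.7, 7.01, 8.2, 12.1 and 7.76 CPM in knockout and 97.7 and 100.3 CPM in GFP-negative cells (-3.28, SE 0.28, adjusted p = 1.73e-06). Hoxb6, a gene of middle rank, stood at 43.6, 24.2, 21.1, 44.2 and 16.04 CPM in control, 36.9, 21.2, 24.1, 34.8 and 16.9 CPM in knockout and 252 and 257 CPM in GFP-negative cells (-3.17, SE 0.32, adjusted p = 1.06e-05). For each of these the fractions were wide apart, and the libraries numbered 1 and 4 were the highest GFP-positive ones. Over the 9 genes Hoxb1 to Hoxb9, log2 fold changes ran from -4.06 to -2.29, with a median of -3.28. Markers of other cells were lower in GFP-positive cells too, with 10 of 13 for ventral interneurons (summed 35.9 to 178 CPM against 731 and 652 CPM), 7 of 7 for dorsal interneurons (14.3 to 67.6 CPM against 505 and 464 CPM) and 9 of 9 for neural progenitors. None of the ventral interneuron or progenitor markers was at 0 in any library, and the part of such cells in the Hox values was not tested.

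The other clusters fell less in the same paralogue groups. In groups 1 to 8, the 6 cluster A members ran from -2.75 to -1.13, the 3 cluster D members from -1.69 to -0.99, and 3 of the 4 cluster C members from -1.52 to -1.07. Hoxa2, which patterns the hindbrain and its neural crest, was alone among these in reaching the range of cluster B. 

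Hoxa5, which acts in phrenic motor neurons, stood at 69.5, 53.4, 68.98, 77.3 and 57.3 CPM in control, 75.6, 56.5, 64.05, 74.00 and 66.2 CPM in knockout and 195 and 189 CPM in GFP-negative cells (-1.54, SE 0.11, adjusted p = 2.21e-07). Hoxc4, expressed in cervical cord, stood at 54.8, 51.7, 60.5, 67.9 and 52.3 CPM in control, 64.6, 54.04, 58.4, 65.8 and 64.98 CPM in knockout and 182 and 159 CPM in GFP-negative cells (-1.52, SE 0.09, adjusted p = 2.63e-08). Hoxc6, a gene of brachial motor neurons, stood at 46.9, 39.8, 47.2, 56.8 and 38.7 CPM in control, 62.4, 43.6, 45.04, 61.03 and 41.9 CPM in knockout and 139 and 136 CPM in GFP-negative cells (-1.51, SE 0.15, adjusted p = 4.93e-06). None of these 3 overlapped between fractions, and their GFP-positive libraries lay closer together than those of the Hoxb genes.

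Hoxd3, of the hindbrain and neck, stood at 127, 81.1, 106, 124 and 94.3 CPM in control, 119.6, 87.1, 91.8, 109 and 87.2 CPM in knockout and 332 and 331 CPM in GFP-negative cells (-1.69, SE 0.14, adjusted p = 1.22e-06), but 52.6% of its 31-base words also occur in the overlapping gene Gm28230. Hoxa7 ranged from 45.98 to 60.3 CPM against 116 and 111 CPM (-1.13, SE 0.07, adjusted p = 1.3e-08), with 19.4% of its words shared with Hoxaas3. Hoxd1, the least abundant of these, stood at 0.53, 0.595, 0.629, 0.669 and 0.677 CPM in control, 0.354, 0.454, 0.612, 0.475 and 0.581 CPM in knockout and 1.15 and 1.06 CPM in GFP-negative cells (-0.99, SE 0.21, adjusted p = 0.00102). Its GFP-positive libraries lay below both GFP-negative ones, but in control libraries alone it missed the threshold (adjusted p = 0.0541).

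Hoxc8 was the exception among groups 1 to 8. It stood at 160.3, 178, 208, 198 and 194 CPM in control and 213, 185, 199, 225 and 206 CPM in knockout GFP-positive cells, above 143 and 138 CPM in GFP-negative cells in every library (log2 fold change 0.48, SE 0.09, adjusted p = 0.000423). Hoxb8 and Hoxd8, its paralogues, fell by 3.61 and 1.33 on that scale.

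**Figure D2:**
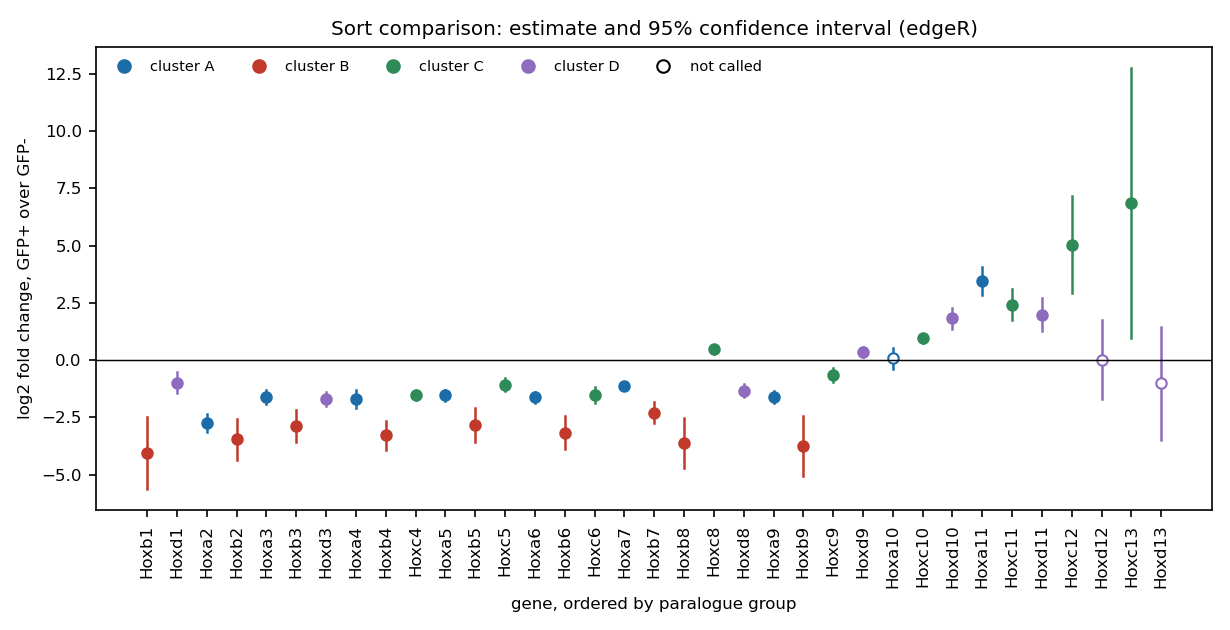
Log2 fold change of GFP-positive over GFP-negative cells (vertical axis) for 35 members in paralogue order (horizontal axis), coloured by cluster, with bars for the 95% confidence interval and open symbols for members that did not pass. Cluster B genes lie between -4.06 and -2.29, and called members of groups 10 to 13 lie above 0; Hoxa13 and Hoxb13, listed at 0 in GFP-negative cells, are left out.

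Within group 9 the paralogues divided. Hoxa9 stood at 79.5, 56.7, 55.5, 64.97 and 54.6 CPM in control, 68.97, 53.2, 56.3, 62.9 and 53.4 CPM in knockout and 193 and 179.03 CPM in GFP-negative cells (-1.62, SE 0.12, adjusted p = 1.98e-07). Hoxc9, which marks thoracic motor neurons, ranged from 39.8 to 60.2 CPM against 79.7 and 72.6 CPM (-0.65, SE 0.14, adjusted p = 0.00149). Hoxd9, which acts at lumbar levels, was higher instead, at 27.8 to 39.9 CPM against 25.2 and 24.1 CPM (0.35, adjusted p = 0.00595). Hoxd9 passed neither in control libraries alone (adjusted p = 0.0536) nor in knockout libraries alone (0.0554), nor without the control GFP-negative library (0.0924), and Hoxc9 missed the threshold in knockout libraries alone (0.0658).

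Group 10 and 11 genes, known for setting lumbar identity, were higher in GFP-positive cells apart from Hoxa10. Hoxd10 stood at 94.9, 70.9, 58.9, 59.3 and 66.1 CPM in control, 70.00, 63.2, 56.95, 55.1 and 61.3 CPM in knockout and 16.5 and 20.5 CPM in GFP-negative cells, with no overlap (1.82, SE 0.20, adjusted p = 8.07e-06). Hoxc10 stood at 131, 111, 99.7, 103 and 105 CPM in control, 109, 104, 103, 101 and 106 CPM in knockout and 53.8 and 57.4 CPM in GFP-negative cells, also with no overlap (0.95, SE 0.09, adjusted p = 6.16e-07). Hoxa10, at 45.5 to 86.5 CPM against 52.7 and 51.5 CPM, overlapped between fractions and did not pass (0.08, SE 0.21, adjusted p = 0.766).

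Hoxa11 stood at 36.9, 25.5, 23.3, 21.4 and 25.1 CPM in control, 21.3, 25.4, 29.05, 21.4 and 22.6 CPM in knockout and 1.76 and 2.81 CPM in GFP-negative cells, a rise of 3.46 (SE 0.27, adjusted p = 3.74e-07). Hoxa11os, the antisense transcript of the same locus, rose too, from 1.32 and 2.08 CPM in GFP-negative cells to 20.6, 10.7, 10.7, 9.41 and 13.1 CPM in control GFP-positive cells (2.79, adjusted p = 2.69e-05). The library kit does not mark strand, and 33.9% of the 31-base words of Hoxa11 occur in Hoxa11os, so reads of the pair cannot be fully told apart. Hoxc11 ranged from 16.7 to 37.7 CPM against 3.56 and 5.04 CPM (2.41, SE 0.31, adjusted p = 3.12e-05). Hoxd11 stood at 41.2, 29.9, 20.4, 17.6 and 23.2 CPM in control, 20.01, 26.8, 26.4, 17.4 and 19.9 CPM in knockout and 6.17 and 6.03 CPM in GFP-negative cells (1.99, SE 0.33, adjusted p = 0.000276). Neither overlapped between fractions.

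The last paralogue groups were unevenly present among GFP-positive libraries. Hoxc12 stood at 30.3, 24.9, 17.6, 10.2 and 14.7 CPM in control and 7.48, 22.4, 27.99, 8.37 and 7.76 CPM in knockout, against 0.373 and 0.657 CPM in GFP-negative cells, from 11 and 18 counts (5.04, SE 0.94, adjusted p = 0.000875). Knockout libraries alone gave 4.48 with an adjusted p of 0.066. Hoxc13, a gene of the caudal end of the axis, stood at 31.3, 18.8, 8.1, 2.88 and 4.87 CPM in control and 2.4, 17.5, 17.8, 0.89 and 0.205 CPM in knockout, from 0.205 CPM to 31.3 CPM. It had 5 counts in the control and 0 in the knockout GFP-negative library, where 0 counts allow up to 0.110 CPM. Its rise of 6.86 (SE 2.62) passed narrowly (adjusted p = 0.0440) and was lost in 14 of 28 alternatives, over which the adjusted p reached 0.389.

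Hoxd12 stood at 3.54, 1.06, 0.839, 0.418 and 0.381 CPM in control and 0.945, 1.03, 0.653, 0.386 and 0.239 CPM in knockout, overlapping 0.847 and 0.913 CPM in GFP-negative cells, and did not pass (0.02, adjusted p = 0.983). Blocking on replicate number, it passed at 1.24 (adjusted p = 0.0266), making 33 of 37 members, where 55.6% of all genes passed. Both GFP-negative libraries are numbered 1, so that fit compares them with the GFP-positive libraries numbered 1, among them control replicate 1 at 3.54 CPM. Hoxd13 ranged from 0 to 1.29 CPM against 0.339 and 0.511 CPM and did not pass (-1.01, adjusted p = 0.461), though without control replicate 1 it was called lower (-1.96, adjusted p = 0.0351). Hoxa13 and Hoxb13, genes of the hindgut, genital and tail region, had 0 counts in both GFP-negative libraries and in 5 of 10 GFP-positive libraries. Against 3 counts over both GFP-negative libraries, pooled GFP-positive cells were at least 3.11-fold higher for Hoxa13 and at least 19.0-fold higher for Hoxb13, and neither passed (adjusted p = 0.217 and 0.221). Of the 263 Hoxb13 counts, 100 remained without knockout replicate 2, and of the 43 Hoxa13 counts, 20. Among the 10 GFP-positive libraries, knockout replicate 2 also had the highest summed markers of mesenchyme, meninges and pericytes (16.8 CPM, others at most 9.81). It was likewise highest among them for endothelium (15.1 CPM, others at most 7.76) and erythroid cells (50.5 CPM, others at most 29.7). Both GFP-negative libraries, with 0 counts of Hoxa13 and Hoxb13, were higher for mesenchyme (34.4 and 34.4 CPM) and erythroid markers (230.03 and 327.6 CPM). For endothelium markers both were lower than knockout replicate 2. The part of these cells in the Hoxa13 and Hoxb13 values was not tested.

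**Figure D3:**
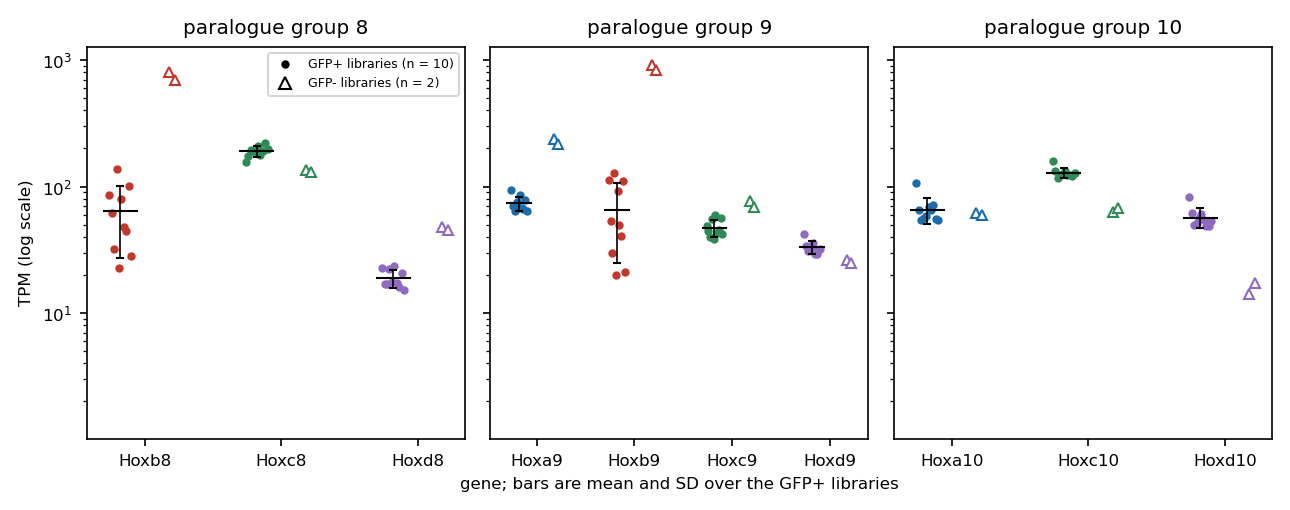
TPM on a log axis for the members of paralogue groups 8, 9 and 10, with 10 GFP-positive libraries as filled points (bars: mean and SD) and the 2 GFP-negative libraries as open triangles, coloured by cluster. Within groups 8 and 9 the cluster B gene is lowest relative to its GFP-negative level, while Hoxc8, Hoxd9, Hoxc10 and Hoxd10 sit above theirs.

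These unequal changes altered the balance between paralogues, here as ratios of TPM. The Hoxb8 to Hoxc8 ratio was 0.12 to 0.72 in GFP-positive libraries and 5.95 and 5.32 in GFP-negative ones, so the more abundant gene changed. For Hoxb9 and Hoxd9 the ratio was 0.60 to 3.83 against 35.2 and 33.6. The Hoxa4 to Hoxb4 ratio was 2.08 to 3.64 against 1.01 and 0.79. The Hoxa6 to Hoxc6 ratio, by contrast, was 0.82 to 1.06 against 0.97 and 1.01, and the fractions overlapped.

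Among GFP-positive libraries, the cluster B genes varied most within paralogue groups 2 to 9. Their coefficient of variation had a median of 38.5% (23.5 to 62.0% over 8 genes), against 14.1% in cluster A, 14.6% in cluster C and 15.4% in cluster D. Some caudal members varied more, for instance Hoxd12 at 101%. For all 9 genes Hoxb1 to Hoxb9, the libraries numbered 1 and 4 of both genotypes were the 4 highest of the 10. The same held for 5 of 7 cluster A genes of groups 1 to 9, 1 of 5 cluster C genes, 2 of 4 cluster D genes and 0 of 12 genes of groups 10 to 13. Summed, Hoxb1 to Hoxb9 reached 432, 247, 175, 499.6 and 142 CPM in control replicates 1 to 5 and 379.6, 224, 204, 405 and 157 CPM in knockout replicates 1 to 5, against 3023 and 2801 CPM in GFP-negative cells.

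Summed markers of ventral interneurons were also highest in the libraries numbered 1 and 4, whereas those of dorsal interneurons and progenitors were not. Number 1 was above number 4 in both genotypes for the ventral markers, and below it for the Hoxb sum. The 13 ventral interneuron markers summed to 178, 84.7, 39.9, 154 and 35.9 CPM in control and 129, 62.8, 40.5, 96.5 and 37.8 CPM in knockout GFP-positive libraries. They summed to 731 and 652 CPM in GFP-negative cells, and none was at 0 in any library. Dorsal interneuron markers summed to 67.6, 47.5, 14.3, 25.1 and 16.7 CPM in control and 57.1, 36.6, 20.5, 21.2 and 14.7 CPM in knockout, and progenitor markers to 166, 129, 81.7, 97.8 and 70.6 CPM and 151, 130.3, 135, 89.3 and 74.8 CPM, so for both the libraries numbered 2 were above those numbered 4. Evx1, a marker of V0 interneurons that lies next to the Hoxa cluster, stood at 4.14, 0.765, 0.126, 16.4 and 0.423 CPM in control and 2.72, 0.536, 0.0816, 8.99 and 0.239 CPM in knockout, highest in the libraries numbered 4. The part of these cells in the Hoxb values was not tested. Without the libraries numbered 1 and 4, an alternative chosen after seeing the data, 31 of 37 members passed, 8 higher and 23 lower, and Hoxc13 was the call lost (adjusted p = 0.0562).

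Caudal genes followed another order. Groups 12 and 13 together summed to 67.4, 47.1, 26.9, 13.5 and 20.02 CPM in control and 10.99, 48.8, 47.9, 9.73 and 8.2 CPM in knockout, against 1.73 and 2.08 CPM in GFP-negative cells. Control replicates 1 and 2 and knockout replicates 2 and 3 were the 4 highest for both Hoxc12 and Hoxc13. Control replicate 1 was the highest library for 10 of the 12 members of groups 10 to 13 and for 4 of the 21 members of groups 1 to 8. Replicate numbers did not line up here throughout, since knockout replicate 1 had 10.99 CPM where control replicate 1 had 67.4 CPM.

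**Figure D4:**
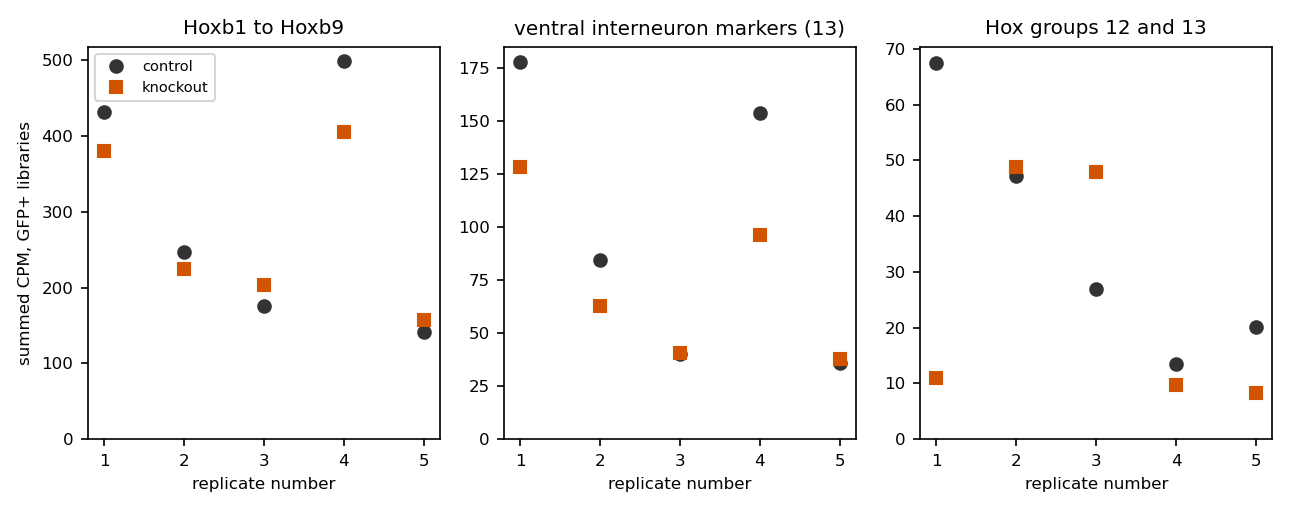
Summed CPM of Hoxb1 to Hoxb9 (left), of 13 ventral interneuron markers (middle) and of paralogue groups 12 and 13 (right) in GFP-positive libraries by replicate number, with control as circles and knockout as squares. The left and middle panels are highest at numbers 1 and 4 (379.6 to 499.6 and 96.5 to 178 CPM), and the right panel has another order.

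The knockout comparison asked whether loss of Arhgap35 altered Hox expression in GFP-positive motor neurons. Of 33 members tested, 0 passed (edgeR, adjusted p = 1.0 for each), where 0.0343% of 17487 genes did. Hoxb1, Hoxa13, Hoxb13 and Hoxd13 were too low to be tested. Unadjusted p was under 0.05 for 1 member, Hoxa7, and for 2.14% of all genes. DESeq2, limma-voom and limma on TPM called none either, with 1, 1 and 0 members at unadjusted p under 0.05. For none of the members did control and knockout libraries separate completely, as 0.538% of all genes did.

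Hoxa7, the member with the smallest p, stood at 48.5, 46.1, 51.4, 55.7 and 45.98 CPM in control replicates 1 to 5 and 55.3, 50.5, 53.9, 60.3 and 52.6 CPM in knockout replicates 1 to 5. The knockout library was higher in all 5 same-numbered pairs, but the groups overlapped. Its log2 fold change was 0.14 (95% interval 0.00 to 0.28, edgeR unadjusted p = 0.0475, adjusted p = 1.0). Hoxd9 stood at 39.9, 31.99, 30.4, 31.6 and 32.01 CPM in control and 33.9, 28.01, 27.8, 29.5 and 30.3 CPM in knockout, lower in all 5 pairs (-0.15, SE 0.08). Hoxd1, Hoxd10 and Hoxd12 were also lower in all 5 pairs. The share of all genes with such agreement between pairs was not counted. Hoxc8, given above, was 0.13 higher (SE 0.07). For Hoxc5, which acts with Hoxa5 in phrenic motor neurons, values were 29.3, 23.2, 36.5, 34.95 and 27.6 CPM and 39.4, 31.7, 31.2, 35.04 and 33.7 CPM (0.18, SE 0.12). Hoxc11 stood at 37.7, 25.7, 22.5, 18.6 and 22.4 CPM and 16.7, 25.04, 24.3, 18.6 and 19.6 CPM (-0.29, SE 0.19). The widest estimate among the 6 with the smallest p was Hoxd12 at -0.99 (SE 0.65). Its size depended on control replicate 1, at 3.54 CPM where the other 9 libraries had at most 1.06 CPM. The estimate moved to -0.08 without that library, a fit in which its partner, knockout replicate 1, stayed. With the replicate block, which keeps the pairs, it was -0.73 (SE 0.30).

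The intervals show what sizes the data allow in the main fit, which leaves replicate number out. For Hoxc10 the 95% interval was -0.22 to 0.07 and for Hoxa6 -0.19 to 0.26, whereas for Hoxb9 it was -1.57 to 1.29 and for Hoxc13 -3.29 to 1.71. Blocking on replicate number, again 0 members passed (0.0286% of all genes), and unadjusted p was under 0.05 for 7 members (5.08% of all genes). These were Hoxa7, Hoxc6 and Hoxc9 above 0 and Hoxd3, Hoxd9, Hoxd10 and Hoxd12 below 0, named after their values were seen. The interval of Hoxb9 narrowed to -0.32 to 0.23 in that fit.

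Signs of the estimates were uneven and moved with single libraries. Estimates were below 0 for 25 members and above 0 for 8, with a median of -0.10 against -0.00158 for all genes. Without control replicate 1, 10 were below 0 and 23 above, with a median of 0.02, and without control replicate 4 the median was 0.04. All 9 tested members of groups 10 to 13 lay below 0 (median -0.27), a value of -0.06 with 6 of 9 below 0 once control replicate 1 was left out. All 8 cluster B members lay below 0 as well (median -0.14), and 7 of 8 lay above 0 without control replicate 1 (0.03) or without control replicate 4 (0.08). Leaving out either of these removes 1 of the high Hoxb libraries on the control side only. Blocking on replicate number, 24 members lay below 0 and 9 above (median -0.07), with 7 of 8 cluster B members (median -0.09) and 9 of 9 members of groups 10 to 13 (median -0.22) below 0. Without the libraries numbered 1 and 4 of both genotypes, 13 members lay below 0 and 21 above (median 0.02). The 13 ventral interneuron markers were likewise all below 0, with a median of -0.44 and none called, and their part in the Hoxb values was not tested. The 5 cluster C members of groups 4 to 9 lay above 0 with every library and with any single library left out, with medians of 0.07 to 0.19. They were picked after their signs were seen, and these fits share most of their libraries. In the main fit Hoxa5, Hoxa6 and Hoxa7 lay above 0 too, at 0.04, 0.03 and 0.14, while Hoxc10, Hoxc11, Hoxc12 and Hoxc13 lay below 0.

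**Figure D5:**
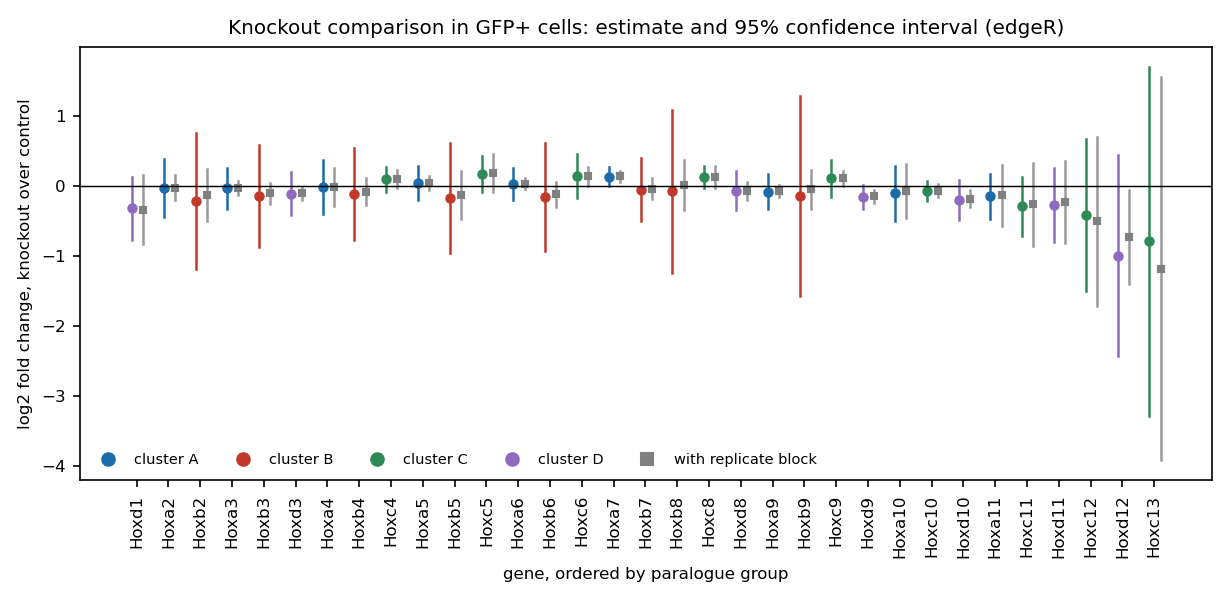
Log2 fold change of knockout over control in GFP-positive cells (vertical axis) for 33 members in paralogue order, with 95% confidence intervals, coloured by cluster, and in grey the same with the replicate number as a block. Cluster B intervals are the widest among groups 2 to 9 without the block and shorten with it, as for Hoxb9 (-1.57 to 1.29, then -0.32 to 0.23).

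The knockout effect in GFP-negative cells minus that in GFP-positive cells, from 1 library of each genotype on the negative side, passed for 0 of 37 members (edgeR), where 0.0253% of 19763 genes passed. No member had an unadjusted p under 0.05, where 1.78% of all genes did, and DESeq2 and limma-voom called none. Blocking on replicate number, 0 passed (0.00506% of all genes), and Hoxa7, Hoxc9 and Hoxd10 had an unadjusted p under 0.05, as did 3.1% of all genes. The smallest p belonged to Hoxa11 at 0.82 (SE 0.45), Hoxc11 at 0.79 (SE 0.52) and Hoxd10 at 0.51 (SE 0.33), each with an adjusted p of 1.0. In GFP-negative cells Hoxa11 stood at 1.76 and 2.81 CPM in control and knockout, Hoxc11 at 3.56 and 5.04 CPM and Hoxd10 at 16.5 and 20.5 CPM, each higher in the knockout library.

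Partners and regulators of Hox genes were read from the same fits, against the all-gene shares of 30.1% higher, 31.8% lower and median 0.02 given above. Of 9 cofactors of the Pbx, Meis and Pknox families, which bind DNA with Hox proteins, 4 were higher and 4 lower in GFP-positive cells (median 0.01). Pbx3 rose by 0.60 (adjusted p = 1.62e-07), whereas Pknox1 was at -0.94 (adjusted p = 4.29e-07). Of 17 genes that carry positional signals to Hox genes, 12 were tested, none of them a Cdx gene. Of these 12, 6 were higher and 5 lower (median 0.23). Among them Aldh1a2, which makes retinoic acid and is also a limb motor column gene, rose by 6.79, the retinoid receptor Rxrg by 3.96 and the retinoic acid-degrading enzyme Cyp26b1 by 2.70.

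Of 22 genes of the Polycomb and Trithorax list, which keep Hox genes silent or active and to which the insulator factor Ctcf was added, 19 were lower in GFP-positive cells and 2 higher, with a median of -0.48. Ctcf, Suz12 and Bmi1 were at -0.82, -1.03 and -1.64 (adjusted p = 9.19e-09, 3.07e-08 and 1.19e-07). Ezh1 was among those that rose. The 9 neural progenitor markers, summing to 70.6 to 166.5 CPM in GFP-positive and 1178 and 1289 CPM in GFP-negative libraries, moved in the same direction, and their part was not tested. Of 20 genes of motor columns and pools, 17 were higher and 2 lower (median 2.61), with Mecom at 2.85, Ret at 4.63 and Isl2 at 8.43. Lhx1 and Bmp5 were the lower ones.

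Of 9 other transcripts of the Hox loci tested, 2 rose and 5 fell (median -1.55). Hotair, a noncoding RNA of the Hoxc cluster that lies between Hoxc11 and Hoxc12, stood at 13.4, 10.1, 6.88, 4.6 and 6.22 CPM in control and 4.25, 8.04, 8.24, 5.7 and 5.16 CPM in knockout, above 0.847 and 1.24 CPM in GFP-negative cells (2.77, adjusted p = 0.000292). Hoxb3os fell by 3.14 (adjusted p = 3.77e-06), but 52.1% of the 31-base words of Hoxb3 are shared with it, and their reads cannot be fully told apart. In the knockout comparison no gene of these lists passed, with 0 of 9 cofactors, 0 of 12 positional genes, 0 of 21 chromatin genes, 0 of 19 column and pool genes and 0 of 9 locus transcripts (edgeR), and none at unadjusted p under 0.05. Among the smallest p values there were those of Meis3 (-0.19), Rxrb (-0.04) and Crabp1 (-0.19), Ring1 (-0.11) and Cbx8 (-0.09), Nos1 (-0.27) and Cdh20 (0.16), and Hotair (-0.40) and Hoxa11os (-0.26), as log2 fold changes.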

How the data were processed

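Polyadenylated RNA was read as 50-base single ends from a kit that does not mark strand, per the labels' protocols. The authors deposited estimated counts per gene symbol, not normalised between libraries, and a table of TPM (length-scaled values). The submitters' processing notes name kallisto and mm10. No version and no rule for joining transcripts under a symbol were found in those notes. Each value column was matched to its sample by name, and 0 were left unmatched.

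Estimated counts were rounded, filtered with filterByExpr and scaled by TMM, and all genes were fitted with edgeR's robust quasi-likelihood test (edgeR 4.0.16, limma 3.58.1, R 4.3.3). Adjusted p is by Benjamini-Hochberg over all genes tested, with a threshold of 0.05. Knockout was compared with control in 10 GFP-positive libraries. The sort comparison used all 12 libraries with genotype as a term, and the difference of knockout effects used 4 group means. Alternatives were other scalings, other filters, limma-voom, DESeq2 1.42.0, limma on the log2 of TPM plus 1 or 0.1, the replicate block, single genotypes and leaving out each library. The fits were run on simulated data with 200 genes changed by 2 on the log2 scale. Of these, 100, 100 and 92% were called in the knockout, sort and difference comparisons, beside 14, 15 and 8 false calls. Every simulated gene had the same dispersion, and replicate numbers had no effect. Small changes and variable genes such as Hoxb9 were therefore not covered. Deposited TPM columns sum to between 974800 and 1018240, so TPM served to compare genes, for shares and in alternatives.

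Same-numbered control and knockout libraries had correlated deviations from their group means (r = 0.18 to 0.38, against at most 0.10 for other pairs). The main fits left replicate number out. Only the replicate block, run as an alternative, took the numbers to pair libraries. Replicates differed beyond counting noise (chi-square over its degrees of freedom at least 7.92), so none counted as a duplicate. Floors and intervals from counts cover counting error only.

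Values are given in every library for up to 6 called members per direction with the largest sort change, for the 6 smallest p in the knockout comparison, for the 3 smallest p in the difference and for the most abundant member per paralogue group. From other lists, up to 3 called genes with the smallest p were named, or the 2 with the smallest p. The members and lists were chosen with earlier results of these data known. Further named genes were chosen after their values were seen. A further row that matches the name pattern, and some genes and sequences that these rules would name, are not reported here.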

Additional observations from a re-analysis of the deposited data

Results flagged for a closer look

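In 9 of 74 groups of 5 libraries tested, the highest library stood apart from the others by Dixon's criterion. Chance meets it in about 1 in 20 independent groups. The 74 groups reuse the same libraries and are not independent, so their share cannot be set against that rate. Control replicate 1 was the library that stood apart for 6 members. It had 2.38 CPM of Hoxb1 where the other control libraries had at most 0.293 CPM, 39.9 CPM of Hoxd9 (others 30.4 to 32.0), 86.5 CPM of Hoxa10 (others 46.0 to 55.4) and 36.9 CPM of Hoxa11 (others 21.4 to 25.5). It also had 3.54 CPM of Hoxd12 (others up to 1.06) and 1.29 CPM of Hoxd13 (others up to 0.255). Knockout replicate 1 had 0.591 CPM of Hoxb1 (others 0.245 to 0.326). Knockout replicate 2 had 0.949 CPM of Hoxa13 (others up to 0.0408) and 6.72 CPM of Hoxb13 (others up to 1.18). The same library had the highest summed mesenchyme, endothelium and erythroid markers of the 10 GFP-positive libraries, and their part was not tested.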

How the results depend on the processing

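Counts of members passing stayed near those reported in every alternative run: 0 in the knockout comparison, 28 to 33 in the sort comparison (30 to 32 leaving out single libraries) and 0 for the difference of knockout effects. With the replicate block the counts were 0, 33 and 0, and apart from Hoxd12 in the sort comparison (1.24) no call of a member changed. In the sort comparison the calls lost were those of Hoxc13 in 14 alternatives, Hoxd9 in 3, and in 1 each Hoxb1 and Hoxd1 (control libraries alone), Hoxc12 and Hoxc9 (knockout libraries alone). The DESeq2 test called 31 of 37 members, 9 higher and 22 lower, against 23 lower in the main fit. The lower call missing there was that of Hoxb1, which had no adjusted p in that test. The list of lost calls counts only alternatives with an adjusted p, and Hoxb1 had one in 26 of 28. In the knockout comparison, where nothing was called, most Hoxb estimates changed sign without control replicate 1 or 4. Leaving out libraries moved the share of groups 10 to 13 in control GFP-positive cells between 25.0 and 28.2% and in knockout between 22.7 and 25.3%, and that of cluster B between 16.1 and 20.3% and between 16.2 and 19.1%. Over the scalings the median of all genes lay between -0.03 and 0.02 in the sort comparison. The difference of knockout effects could not be fitted without either GFP-negative library. Depth limits Hoxb1, Hoxd1, Hoxd12 and the group 13 members, each with 9 counts or fewer in at least 1 GFP-positive library.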
